A study of Mus musculus with 28 samples.

Results

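Clustered zinc finger genes are described here by where their starts and clusters fall in H3K9me2 domains of mouse embryonic stem cells (mESCs) and 2-cell-like cells (2CLCs). The members were the autosomal protein-coding genes of mm10 whose symbol is Zfp followed by a number and that had at least 3 other such genes starting within 250 kb. This rule gave 162 members among 385 autosomal Zfp genes and 20807 autosomal protein-coding genes, and it used no H3K9me2 value. Members whose neighbouring starts were at most 250 kb apart were joined, which gave 19 clusters of 2 or more members on chromosomes 4, 6, 7, 8, 9, 11, 13 and 17. The remaining member, Zfp658 on chromosome 7, met the rule but was not joined to another member. Clusters are named by chromosome and a letter in order of position.

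The cells were mESCs of a BL6/129 hybrid background whose endogenous Ehmt2 gene carries a degron tag and an mCherry reporter (EHMT2-dTAG-mCherry). EHMT2 is a histone methyltransferase that places H3K9me2 together with EHMT1, the degrader dTAG-13 removes the tagged protein, and DMSO is the solvent control. All sorted cells also carried a GFP reporter driven by the endogenous retrovirus MERVL, came from 1 clone, and were treated for 72 h before sorting into GFP-negative mESCs and GFP-positive 2CLCs, a rare state that resembles the 2-cell embryo. The assay was ULI-NChIP, in which native chromatin from few cells is immunoprecipitated, with 3 immunoprecipitation and 3 input libraries for each of mESC DMSO, mESC dTAG, 2CLC DMSO and 2CLC dTAG, and with 2 of each for bulk mESCs after 24 h in DMSO. According to the labels, 2 of the replicates, not identified there, also received TTNBP, which activates retinoic acid receptors. The methods of the study name this agonist for the sorted cells with no such limit, so no library can be taken as free of it. The values are positions of domains, 1 list for each sorted condition and 1 further list, called the unnamed set, whose name gives neither a cell state nor a treatment.

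Each list stands for a whole condition, so no value below has a replicate, and no difference between lists could be set against the spread between cultures. Domains were called from percentiles of the signal over input, and the lists held 3870 and 6770 autosomal domains for mESCs with DMSO and dTAG, and 3870 and 8281 for 2CLCs. Whether the percentiles were set for each list is not given in the sources used here. If they were, a start inside a domain is a statement on position relative to the rest of the genome in that list. In either case the lists do not give the amount of the mark. The depth behind the domains is unknown. No expression values were analysed here, so the sorted cell types were not checked against marker genes.

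Zfp genes encode proteins with tandem C2H2 zinc fingers, most of which read DNA sequence, and many clustered members also carry a KRAB domain that recruits TRIM28 and, through it, the H3K9 methyltransferase SETDB1. A large part of the family is known for silencing endogenous retroviruses in embryonic stem cells. The genes multiplied by local duplication, so that neighbours are often paralogs in tandem, and their clusters are known as places where H3K9 methylation and HP1 proteins lie over the genes themselves. In the clusters described here, neighbouring member starts had a median spacing of 35.4 kb, and 74 members lay on the plus strand and 88 on the minus strand.

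Promoter sequences were found in the RefSeq table for 147 of the 162 members (matched by symbol, chromosome and strand), and 2 of them are shown. Zfp708 is a Zfp gene with a textbook role. Zfp729a is the first member of the same cluster, chromosome 13 cluster A, with an entry in both cell states and a RefSeq promoter. Their starts had the same outcome in mESCs and different ones in 2CLCs. Zfp708 was in a domain in mESC dTAG and 2CLC DMSO and outside in the remaining sorted sets. The start of Zfp729a, 540 kb away, was outside in DMSO and inside in dTAG in both cell states. In 2CLCs this contrast rests on short distances. Zfp708 lay 4.88 kb from a dTAG domain and Zfp729a 0.066 kb from a DMSO domain, both less than the 5 kb step of domain edges. Both promoters are on the minus strand of GRCm38.p6 and run from 250 bases before the RefSeq start to 50 bases after it, with every CG in capitals, the dinucleotide that carries DNA methylation in mammals. The Zfp708 window is chr13:67097927-67098226 and holds 9 CG, and the Zfp729a window is chr13:67637732-67638031 and holds 5.
Zfp708: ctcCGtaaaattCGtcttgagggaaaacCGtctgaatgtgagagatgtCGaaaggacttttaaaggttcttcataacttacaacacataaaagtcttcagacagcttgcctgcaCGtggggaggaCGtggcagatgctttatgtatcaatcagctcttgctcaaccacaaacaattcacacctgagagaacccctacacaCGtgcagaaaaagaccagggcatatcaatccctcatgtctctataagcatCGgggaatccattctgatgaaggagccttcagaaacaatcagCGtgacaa
Zfp729a: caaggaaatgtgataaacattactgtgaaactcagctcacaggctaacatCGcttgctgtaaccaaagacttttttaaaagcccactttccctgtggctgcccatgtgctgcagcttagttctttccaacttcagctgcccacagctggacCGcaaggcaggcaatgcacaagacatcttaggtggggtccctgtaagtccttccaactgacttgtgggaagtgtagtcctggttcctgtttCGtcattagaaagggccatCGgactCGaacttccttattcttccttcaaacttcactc
CG reads the same on both strands, and 94.8% of the 31396 autosomal RefSeq promoters of this length hold at least 1.

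To ask where the clustered genes lie in the domain landscape of each condition, their starts were placed in the 4 sorted sets. Of the 162 members, 28 started in a domain of mESC DMSO (17.3%, Wilson 95% interval 12.2 to 23.8) and 81 in a domain of mESC dTAG (50%, 42.4 to 57.6). In 2CLCs, 25 members started in a DMSO domain (15.4%, 10.7 to 21.8) and 85 in a dTAG domain (52.5%, 44.8 to 60.0). The background, all autosomal protein-coding gene starts, was 21.4% with DMSO and 22.8% with dTAG in mESCs, and 22.1% and 25.5% in 2CLCs. In both dTAG sets the members' intervals lay above the background. In mESC DMSO the interval included the background, and the value depended on the definition of the members: it was 5.71% when they were chosen with a window of 100 kb, 22.8% with 500 kb and 22.3% without chromosome 7. In 2CLC DMSO the interval ended just below the background, at 21.8 against 22.1%. The share there was 12.4% with the window of 100 kb, 18.1% with 500 kb and 17.0% without chromosome 7. The intervals cover the count of genes only, and they treat members as independent although many share a domain.

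**Figure D1:**
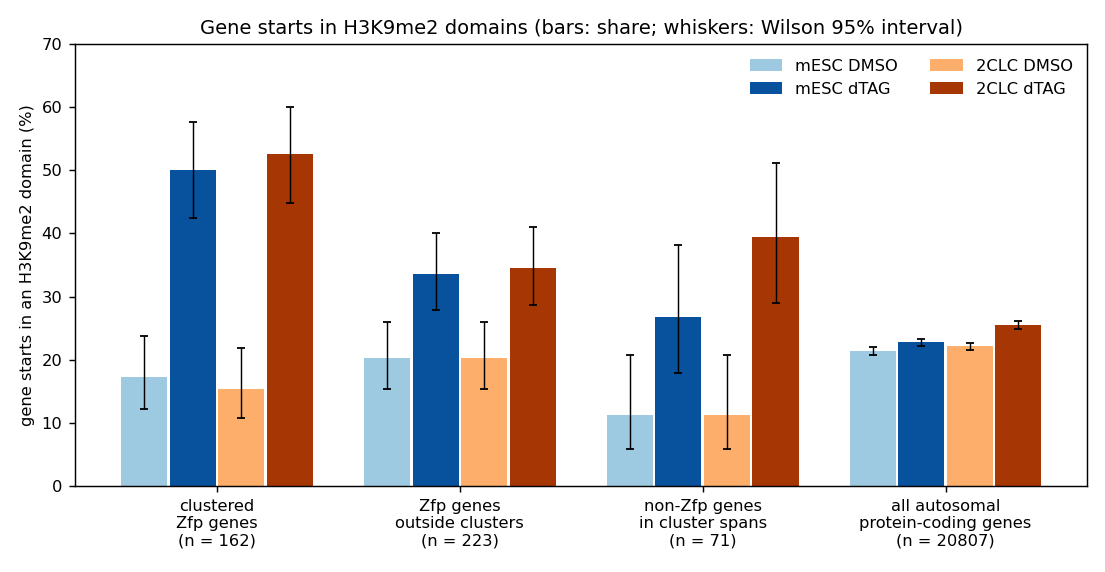
Share of gene starts in an H3K9me2 domain (y axis, percent) for 4 groups of genes (x axis) in the 4 sorted sets (colours), with Wilson 95% intervals over genes as whiskers. Clustered Zfp genes go from 17.3% to 50% in mESCs and from 15.4% to 52.5% in 2CLCs, while all autosomal genes stay between 21.4% and 25.5%.

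Zfp genes outside clusters showed the same direction with a smaller difference. Of these 223 genes, 20.2% started in a domain in each DMSO set, 33.6% in mESC dTAG and 34.5% in 2CLC dTAG. For the 71 protein-coding genes of other families that start inside the cluster spans, the share was 11.3% with DMSO and 26.8% with dTAG in mESCs, and 11.3% and 39.4% in 2CLCs. In the 2 dTAG sets the members had the highest share of the 4 groups.

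Following each start from DMSO to dTAG separates entries from exits. For the sorted cells, the paper reports globally lower H3K9me2 after EHMT2 depletion in both cell states. An entry is a change of position relative to domains and does not show that a start gained the mark in amount. In mESCs, 53 members entered a domain (32.7%, background 6.23%) and 0 left one (background 4.86%). In 2CLCs, 62 members entered (38.3%, background 7.48%) and 2 left (1.23%, background 4.07%). Among starts that were outside domains in DMSO, 39.6% of the members entered in mESCs against 7.92% of all genes, and 45.3% against 9.6% in 2CLCs. Of the starts inside in DMSO, 0 of 28 members left in mESCs (22.7% of all genes) and 2 of 25 in 2CLCs (8.0% against 18.4%). Of those 28, 9 share 1 domain. Entries in mESCs and 2CLCs were 14.8% and 17.0% for Zfp genes outside clusters. They were 15.5% and 29.6% for non-Zfp genes in the cluster spans, with 0 and 1 exits. Over all genes entries and exits were closer in number, with 1296 and 1012 in mESCs and 1556 and 847 in 2CLCs.

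Boundaries move in steps of 5 kb, so starts near an edge can change side with 1 bin. Of the entries, 13 of 53 in mESCs and 20 of 62 in 2CLCs had a start within 5 kb of the DMSO domain or of the edge of the dTAG domain (24.5% and 32.3%). Over all genes these shares were 40.8% and 42.4%.

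Both exits in 2CLCs were in chromosome 13 cluster A. Zfp712 left a domain of 75 kb and lay 41.7 kb from the nearest 2CLC dTAG domain. Zfp708, which binds a class of repeat elements, left another domain of 75 kb and lay 4.88 kb from the nearest dTAG domain, less than 1 grid step. The start of Zfp708 entered a domain of 80 kb in mESCs, so it was the 1 member that moved in opposite directions in the 2 cell states.

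The members were chosen to lie close together, so domains shared by entries follow in part from that choice. The 53 entries in mESCs lay in 25 dTAG domains in 13 clusters, and 43 of them (81.1%) shared their domain with at least 1 other entry. The 62 entries in 2CLCs lay in 28 domains in 15 clusters, and 51 (82.3%) shared theirs. Over all autosomal protein-coding genes, 50.4% of the 1296 entries in mESCs and 49.0% of the 1556 in 2CLCs shared a domain with another entry. Of these domains, 14 of 25 in mESCs and 15 of 28 in 2CLCs touched no DMSO domain of the same cell state, and they held 30 and 33 of the entries. These are 56.0% and 53.6% of the entered domains, against 55.8% of 884 and 65.1% of 1069 domains entered by all genes. The median width of the entered domains was 125 kb in mESCs and 92 kb in 2CLCs, against a median of 60 kb and 55 kb for all autosomal dTAG domains. A wide domain is more likely to hold a gene start, so the difference in width is a description of where the entries lie.

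Over the 4 sorted sets, 11 members were in a domain in every set (6.79%, against 14.4% of all autosomal genes), 62 in none (38.3% against 67.1%) and 89 in some (54.9% against 18.5%). The most frequent pattern among the 89 was a domain in both dTAG sets and in neither DMSO set, with 28 members (17.3% against 2.78%). These 28 were 52.8% of the mESC entries and 45.2% of the 2CLC entries. For all genes, 579 starts entered in both cell states, 44.7% of the mESC and 37.2% of the 2CLC entries. The next patterns held 17 members each, namely 2CLC dTAG alone, and every sorted set but 2CLC DMSO. A domain in mESC dTAG alone was found for 13 members, and every set but mESC DMSO for 11. No member was in a domain in both DMSO sets and in neither dTAG set, a pattern found for 333 genes in all (1.6%). The Wilson interval for 0 of 162 members reaches 2.32%, so this count cannot be told from the share over all genes. Only 11 members were in a domain in both DMSO sets, so few could show the pattern.

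To compare cell states under the same treatment, starts found in a domain of 1 state only were counted. In DMSO, 17 members were in a domain in mESCs only (10.5%, background 2.99%) and 14 in 2CLCs only (8.64%, background 3.67%), with 11 in both. After depletion, 14 were in a domain in mESCs only (8.64%, background 3.25%) and 18 in 2CLCs only (11.1%, background 5.96%), with 67 in both. The 17 members of the first count include the 9 of chromosome 4 cluster A, which share 1 domain, and 8 remained without that chromosome (5.23%). In DMSO, 6 of the 17 and 6 of the 14 had a start within 5 kb of a domain edge (35.3% and 42.9%). Over all genes these shares were 42.1% and 51.1%. The 6 of the 17 are all among the 8 outside chromosome 4. These counts use the same sets as the comparisons of treatment and are not independent of them.

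The clusters as regions, from the first to the last member start, summed to 6602 kb. Domains covered 31.5% of these bases in mESC DMSO and 59.6% in mESC dTAG, and 27.3% and 63.2% in 2CLCs. Over all autosomal bases the order was the opposite, with 52.4% and 44.6% in mESCs and 49.7% and 46.7% in 2CLCs. Flanks of 250 kb on both sides of each cluster were covered to 38.5% and 51.4% in mESCs and to 38.7% and 50.8% in 2CLCs.

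Cluster by cluster, the covered share was higher in dTAG than in DMSO in 16 clusters in mESCs, equal in 3 and lower in 0. The median difference was 30.8 percentage points, with a range of 0 to 88.4. In 2CLCs it was higher in all 19, by a median of 25.6 points and a range of 4.4 to 100. The difference was larger in the cluster than in its own flanks for 13 of 19 clusters in mESCs and for 18 of 19 in 2CLCs. The 3 clusters without a difference in mESCs were chromosome 4 cluster A and chromosome 7 cluster H, both covered to 100% under both treatments, and chromosome 7 cluster A, at 0% under both. Clusters with no covered base numbered 7 in mESC DMSO and 6 in 2CLC DMSO, but 1 in mESC dTAG and 0 in 2CLC dTAG.

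**Figure D2:**
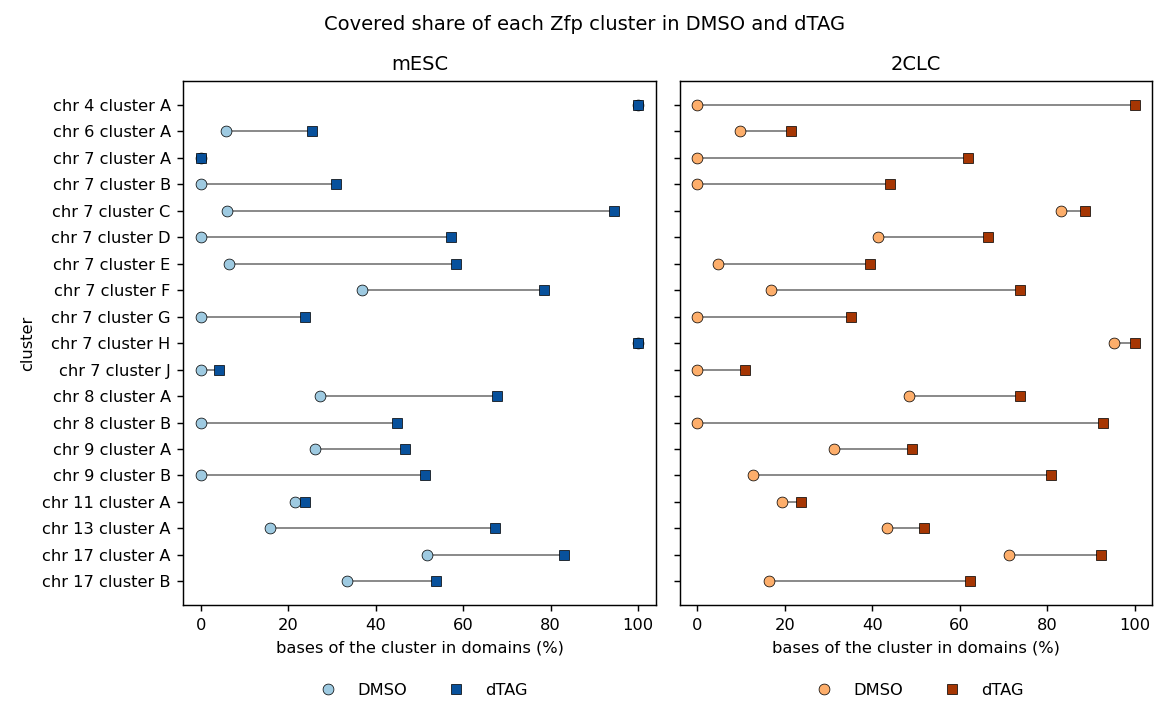
Share of the bases of each of the 19 clusters (y axis) in H3K9me2 domains (x axis, percent) in DMSO (circles) and dTAG (squares), mESCs on the left and 2CLCs on the right. Every square lies at or to the right of its circle, and chromosome 7 cluster C in mESCs (6.04% to 94.4%) and chromosome 4 cluster A in 2CLCs (0% to 100%) show the longest lines.

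By chromosome, the 9 members on chromosome 4 were all in a domain except in 2CLC DMSO, where 0 were. On chromosome 7, with 68 members in 9 clusters and the lone Zfp658, 7 members were in a domain in mESC DMSO and 30 in mESC dTAG (10.3% and 44.1%), and 9 and 33 in 2CLCs (13.2% and 48.5%). Over all genes of this chromosome the shares were 31.6% and 33.1% in mESCs and 32.9% and 36.8% in 2CLCs. On chromosome 8, 0 of 9 members were in a domain in mESC DMSO and 6 in mESC dTAG, and 1 and 7 in 2CLCs. Chromosome 9 had 1 and 6 of 10 members in mESCs and 2 and 6 in 2CLCs. Chromosome 13 had 2 and 13 of 23 in mESCs and 6 and 9 in 2CLCs, and chromosome 17 had 9 and 17 of 30 and 7 and 21. The 7 members on chromosome 6 and the 6 on chromosome 11 were outside domains in all 4 sorted sets.

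No single chromosome carried the difference between treatments. With each chromosome left out in turn, the share of members in a domain ranged from 12.4% to 22.3% in mESC DMSO and from 47.1% to 54.3% in mESC dTAG. In 2CLCs it ranged from 13.6% to 17.0% in DMSO and from 48.5% to 55.3% in dTAG. Within the 6 chromosomes where members started in domains, the count in dTAG was above that in DMSO in both cell states, except on chromosome 4 in mESCs, where all 9 were inside under both.

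**Figure D3:**
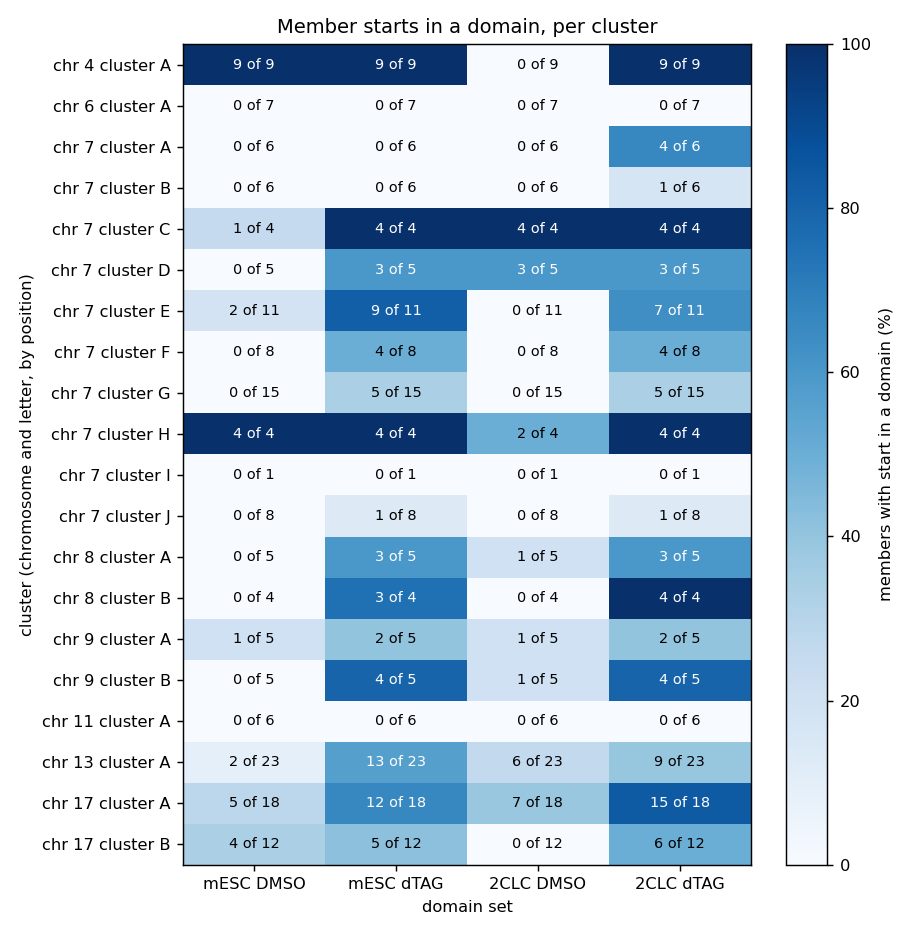
Number of members with their start in a domain, of all members, for each cluster and the lone Zfp658 (rows, named chr 7 cluster I) in the 4 sorted sets (columns), shaded by the share in percent. Columns for dTAG are darker than those for DMSO in most rows, and the rows of chromosome 6 cluster A and chromosome 11 cluster A hold 0 in every set.

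Chromosome 4 cluster A spans 716 kb from Zfp991 to Zfp933 (147132038 to 147848366). Its 9 members, Zfp991, Zfp988, Zfp978, Zfp982, Zfp985, Zfp979, Zfp534, Zfp984 and Zfp933, lay in a single domain in 3 sorted sets, with a width of 2530 kb for mESC DMSO, 2580 kb for mESC dTAG and 2560 kb for 2CLC dTAG. These domains ended 6.05 kb, 31.1 kb and 31.1 kb past the start of Zfp933, so the cluster formed the end of the domain. In 2CLC DMSO the nearest domain ended 2260 kb before the first member and the next one began 8060 kb after the last. This cluster has the largest share of repeated 50-base words of the 19, though not of bases masked as repeats. Of its 50-base words, 40.7% have a second copy on the chromosome, against 9.03% for the whole chromosome and 1.7% to 17.7% for the other clusters. The authors' alignment assigned reads that match several places, and the part of this step in the 2CLC DMSO value was not tested.

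Chromosome 13 cluster A is the largest by members, with 23 in 753 kb from Zfp712 to Zfp273 (67061170 to 67813740). It fell into 3 stretches. At its beginning Zfp712, Zfp708 and Zfp759 varied between sets, and Zfp455 and Zfp458 were in a domain in all 4, of 105 to 120 kb. In the middle, 9 consecutive members from Zfp953 to Zfp748 started outside domains in all 4 sets. A mESC dTAG domain lay between the starts of Zfp874a and Zfp874b, 1.23 and 6.4 kb from them. At the end, Zfp729a, Zfp65, Zfp85, Zfp493 and Zfp273 were outside in both DMSO sets and inside in both dTAG sets.

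Zfp65, Zfp85 and Zfp493 shared a domain of 125 kb in mESC dTAG and one of 120 kb in 2CLC dTAG, and they had been 149, 123 and 98.2 kb from the nearest mESC DMSO domain. Zfp729b, a paralog next to Zfp729a, was also inside in 2CLC DMSO, while the start of Zfp729a lay 0.066 kb outside a domain there. Zfp457, Zfp595 and Zfp738 were in a domain only in mESC dTAG. Of the bases of the cluster, 15.9% were covered with DMSO and 67.2% with dTAG in mESCs, and 43.4% and 51.9% in 2CLCs.

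Chromosome 17 cluster A, with 18 members in 1040 kb from Zfp677 to Zfp946 (21383748 to 22424222), was the cluster with the most members in a domain in every set. These were Zfp677, Zfp820, Zfp995, Zfp947 and Zfp994. Zfp53, Zfp983, Zfp944 and Zfp758 entered domains in both cell states. Zfp52, Zfp948, Zfp760 and Zfp229 were inside in 2CLC dTAG alone, Zfp942 and Zfp943 in mESC dTAG alone, and Zfp946 in both 2CLC sets. Zfp54 was outside only in mESC DMSO, where it lay 1.24 kb from a domain. Zfp942 and Zfp943 start 88 bases apart on opposite strands, and Zfp944 and Zfp758 start 53 bases apart, so each of these pairs is 1 position rather than 2. The covered share was already 51.7% in mESC DMSO and 71.2% in 2CLC DMSO, and it was 83.0% and 92.3% in dTAG.

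Chromosome 17 cluster B holds 12 members in 606 kb from Zfp871 to Zfp101 (32788287 to 33394641). Zfp563, Zfp955b, Zfp81 and Zfp101 were in a domain in every set but 2CLC DMSO, where Zfp563 and Zfp101 lay 2.34 and 2.33 kb from one and Zfp955b and Zfp81 lay 42.6 and 38.1 kb away. In 2CLC dTAG, Zfp763, Zfp563, Zfp955a, Zfp955b and Zfp81 shared a domain of 375 kb. Zfp871 was inside in mESC dTAG alone. The 5 members from Zfp811 to Zfp952 were outside in all 4 sets.

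Chromosome 7 cluster E holds 11 members in 425 kb from Zfp180 to Zfp428 (24081924 to 24507006). In mESCs 2 of them started in a domain with DMSO and 9 with dTAG, and in 2CLCs 0 and 7. Zfp112, Zfp111, Zfp109 and Zfp93 entered in both cell states. Zfp235, Zfp61 and Zfp94 were inside in mESC dTAG alone, Zfp108 in 2CLC dTAG alone, and Zfp180 and Zfp114 in every set but 2CLC DMSO. In that set Zfp180 lay 2.29 kb and Zfp114 0.431 kb outside a domain. The covered share was 6.52% with DMSO and 58.3% with dTAG in mESCs, and 4.7% and 39.5% in 2CLCs.

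Chromosome 7 cluster G, with 15 members in 401 kb from Zfp84 to Zfp146 (29768552 to 30169750), had no domain in either DMSO set. The dTAG domains over it were short. In mESCs Zfp84 lay in one of 55 kb, Zfp790 in one of 35 kb, and Zfp420, Zfp27 and Zfp383 in one of 60 kb. In 2CLCs Zfp84 and Zfp30 shared a domain of 90 kb, Zfp27 and Zfp383 one of 70 kb, and Zfp382 lay in one of 25 kb. The other 8 members were outside in all 4 sets. They include Zfp568, which silences a placental transcript of the growth factor gene Igf2, at 29983955 to 30028282 and 64.3 kb from the nearest domain in mESC dTAG and 49.3 kb in 2CLC dTAG.

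**Figure D4:**
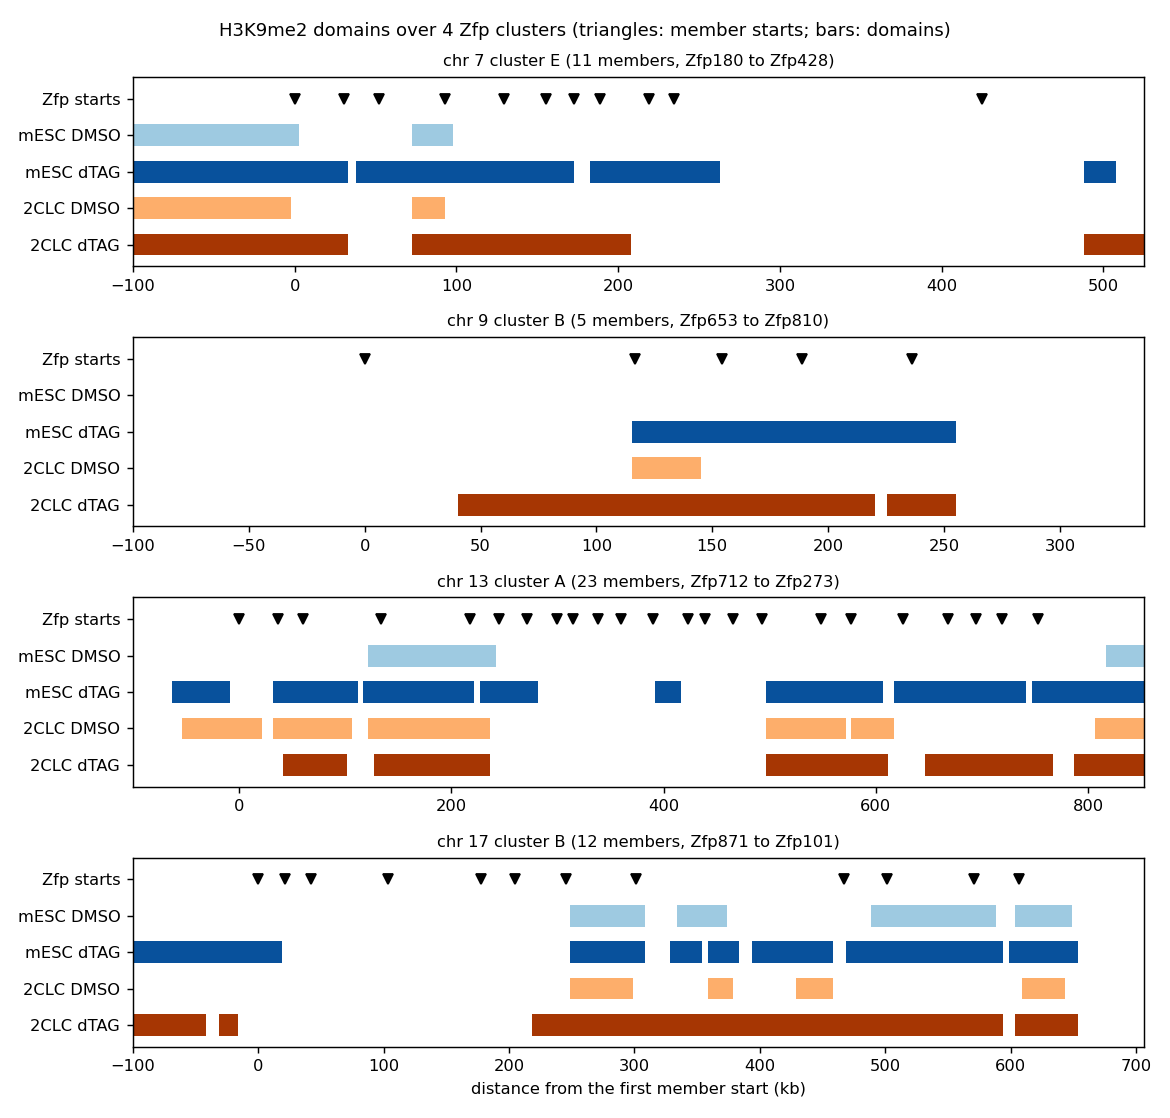
Domains (bars) of the 4 sorted sets over chromosome 7 cluster E, chromosome 9 cluster B, chromosome 13 cluster A and chromosome 17 cluster B, with member starts as triangles; the x axis is the distance in kb from the first member start. In chromosome 9 cluster B the mESC DMSO row is empty and the mESC dTAG row holds 1 domain of 140 kb over 4 of the 5 starts. In chromosome 13 cluster A 9 consecutive starts lie outside the domains of every row, although a mESC dTAG domain lies between 2 of these starts.

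Of the smaller clusters, chromosome 9 cluster B (236 kb, Zfp653 to Zfp810) holds Zfp809, which recognises the tRNA primer binding site of retroviruses and recruits TRIM28 to it. Zfp809 (22225714 to 22243354) was 611 kb from the nearest domain in mESC DMSO and lay in a domain of 140 kb in mESC dTAG together with Zfp872, Zfp599 and Zfp810. In 2CLC DMSO it was 9.12 kb from a domain of 30 kb that held Zfp872 alone, and in 2CLC dTAG it lay in a domain of 180 kb. Chromosome 9 cluster A (196 kb, Zfp560 to Zfp846) had 1, 2, 1 and 2 of its 5 members inside, in the order DMSO and dTAG in mESCs, then DMSO and dTAG in 2CLCs.

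On chromosome 8, cluster A (166 kb, Zfp868 to Zfp866) had 0, 3, 1 and 3 of 5 members inside in the same order, and cluster B (69.0 kb, Zfp709 to Zfp961) had 0, 3, 0 and 4 of 4. The starts of Zfp882 and Zfp617 in cluster B are 27 bases apart. Cluster B was covered to 0% in both DMSO sets, to 44.8% in mESC dTAG and to 92.8% in 2CLC dTAG.

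On chromosome 7, clusters C and D gave the same picture in mESCs but started from a different place in 2CLCs. Cluster C (88.5 kb, Zfp954 to Zfp772) had 1 of 4 members inside in mESC DMSO and 4 in each of the other sets, and cluster D (159 kb, Zfp329 to Zfp446) had 0 of 5 in mESC DMSO and 3 in each of the others. Cluster F (325 kb, Zfp607b to Zfp850) had 0, 4, 0 and 4 of 8. Cluster H (187 kb, Zfp141 to Zfp975) had 4, 4, 2 and 4 of 4 and lay inside 1 wide domain that reached past it in every sorted set but 2CLC DMSO. There, Zfp977 and Zfp975 were in separate domains of 130 kb and 105 kb, and Zfp141 and Zfp976 were outside.

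Cluster A of chromosome 7 (136 kb, Zfp628 to Zfp580) was the 1 cluster with entries in 2CLCs and no covered base in mESCs under either treatment: Zfp628, Zfp579, Zfp524 and Zfp865 were inside in 2CLC dTAG alone. Cluster B (227 kb, Zfp787 to Zfp28) had 1 of 6 members inside, Zfp667, in 2CLC dTAG alone. Cluster J (383 kb, Zfp553 to Zfp629) had 1 of 8 inside, Zfp629, in both dTAG sets.

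The 62 members outside domains in all 4 sorted sets were spread over 16 of the 20 groups. They numbered 9 in chromosome 13 cluster A, 8 in chromosome 7 cluster G, 7 each in chromosome 7 cluster J and chromosome 6 cluster A, 6 in chromosome 11 cluster A, 5 each in chromosome 17 cluster B and chromosome 7 cluster B, and 3 in chromosome 7 cluster F. The remaining 12 came from clusters A and D of chromosome 7, cluster A of chromosome 8 and cluster A of chromosome 9 (2 each), from chromosome 7 cluster E, chromosome 9 cluster B and chromosome 17 cluster A (1 each), and from Zfp658. Chromosome 6 cluster A (256 kb, Zfp786 to Zfp746) and chromosome 11 cluster A (232 kb, Zfp354c to Zfp354a) had no start inside although domains covered up to 25.4% and 23.8% of their bases, between the starts.

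Among Zfp genes with a well known role that are not members, Zfp932, a repressor of endogenous retroviruses, was in a domain in all 4 sorted sets, as was Zfp352, a gene of the 2-cell stage. Zfp42, the pluripotency marker Rex1, was outside in both DMSO sets and lay in a domain of 65 kb in mESC dTAG and 100 kb in 2CLC dTAG. Zfp600 lay in the same wide chromosome 4 domain as cluster A and was likewise outside in 2CLC DMSO alone. Zfp57, which maintains imprints, and Zfp462, a partner of the EHMT1 and EHMT2 complex, were outside in all 4.

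Partners of KRAB zinc finger proteins were placed in the same sets, together with genes of H3K9 and DNA methylation. The list held 18 genes of the TRIM28 and SETDB1 complex, the HP1 proteins, the HUSH complex, the EHMT1 and EHMT2 complex and the maintenance of DNA methylation (Dnmt1 and Uhrf1), and all 18 were found. Of these, 2 started in a domain under each treatment in mESCs, and 1 with DMSO and 2 with dTAG in 2CLCs. The shares over all genes, 21.4% to 25.5%, also leave most genes outside, and with 18 genes no difference from them is read here. Atf7ip, a cofactor of SETDB1, was inside in all 4 sets, Morc2a, which works with the HUSH complex, in mESC DMSO alone, Setdb1 in mESC dTAG alone and Smarcad1, a chromatin remodeller that binds TRIM28, in 2CLC dTAG alone.

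The difference between treatments was also seen at positions around the starts. Neighbouring member starts had a median spacing of 35.4 kb, so positions counted for a member can fall at or beyond the starts of its neighbours. These shares are therefore not separate from the counts of starts and of cluster bases. Along 200 kb on either side, the share of members in a domain was higher in dTAG than in DMSO at every 5 kb step in both cell states. In mESCs it was 29.6% in DMSO and 51.9% in dTAG at 100 kb before the start, 16.0% and 47.5% at 5 kb into the gene, and 33.3% and 64.2% at 100 kb after the start. In 2CLCs the values were 30.2% and 51.2%, 16.7% and 49.4%, and 30.9% and 63.0%. In all 4 sets the share at 5 kb into the gene was below that at 15 kb before the start and at 50 kb after it, and the same held for all genes (21.1% against 24.4% and 24.3% in mESC DMSO). In dTAG the members had lower points elsewhere, with 46.3% at 75 kb before the start in mESCs and 46.3% at 130 kb before it in 2CLCs. For all genes at 100 kb after the start, the shares were 26.5% and 26.1% in mESCs and 26.0% and 28.7% in 2CLCs.

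**Figure D5:**
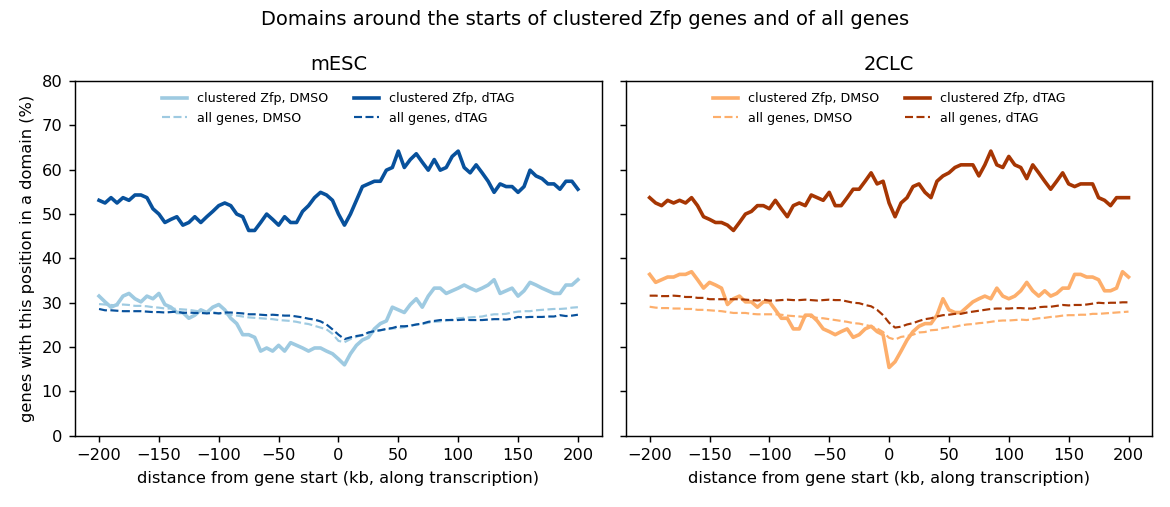
Share of genes with a given position in a domain (y axis, percent) by distance from the gene start along transcription (x axis, kb), for the 162 clustered Zfp genes (solid) and all autosomal protein-coding genes (dashed) in DMSO (light) and dTAG (dark), mESCs on the left and 2CLCs on the right. The dark solid lines stay above the light solid ones over the whole range, and the dashed lines lie close together.

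The ends of the members were in a domain somewhat more often than their starts. For the members, whose median length was 15.8 kb, the share of ends went from 22.2% with DMSO to 55.6% with dTAG in mESCs and from 23.5% to 54.9% in 2CLCs. With the end in a domain and the start outside there were 12 members in mESC DMSO against 4 with the reverse, and 16 against 7 in mESC dTAG. In 2CLCs there were 18 against 5 with DMSO and 15 against 11 with dTAG. Over all genes the counts were 812 and 446 with DMSO and 926 and 902 with dTAG in mESCs, and 777 and 513, then 1127 and 1161, in 2CLCs.

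Few clusters were enclosed by a single domain. The first and last member start shared 1 domain in 2 clusters in mESC DMSO, mESC dTAG and 2CLC dTAG (chromosome 4 cluster A and chromosome 7 cluster H) and in 0 in 2CLC DMSO. Of the 38 cluster ends, 9 were in a domain in mESC DMSO and 19 in mESC dTAG, and 8 and 22 in 2CLCs. Coverage in the first 50 kb outside the clusters was 23.9% in mESC DMSO, below the 38.4% to 48.0% found from 50 to 250 kb. It was 29.1% against 40.0% to 43.2% in 2CLC DMSO. In dTAG it was 52.4% and 46.9%, within the 48.9% to 52.9% and 46.6% to 54.5% found farther out.

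Members also differed in sequence by where their starts fell. In windows of 25 kb on either side of the start, the 62 members outside domains in all 4 sets had a median GC content of 44.5%, 32.8% of bases masked as interspersed or simple repeats and 3.14% of 50-base words repeated on the chromosome. The 28 that entered in both cell states had 42.5%, 37.3% and 5.27%. The 11 that were inside in every set had 40.2%, 45.5% and 17.8%. The 10245 protein-coding genes of the same 8 chromosomes gave the same order, with GC contents of 47.2%, 44.4% and 39.5% for the 3 classes. Members of a cluster share these windows in part, and with no replicated value these medians carry no test.

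RefSeq promoters of the members held a median of 11 CG in 300 bases, with a range of 1 to 51, against 14 for the protein-coding genes of the same chromosomes. The median was 14 for members outside in every set, 9.5 for those that entered in both cell states and 9 for those inside in every set. Over the protein-coding genes of the same 8 chromosomes these classes had 18, 12 and 1. The value for members inside in every set rests on 11 promoters, against 1204 for those genes.

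The unnamed set, which lies on a different grid, had 26 of the 162 member starts in a domain (16.0%, background 29.8%) and covered 28.7% of the cluster bases, with 63.3% of all autosomal bases. Of the 9 members of chromosome 4 cluster A, 8 were inside in this set, in a domain of 2550 kb.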

How the data were processed

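Members and gene lists were chosen with earlier results of these data known. The authors deposited domain positions (chromosome, start and end) with a score of 0 for every domain, and the lists carry no counts, so depth is unknown. Per the labels and the study's methods, reads were aligned to mm10 with STAR 2.7.10 in a mode that places reads with several matches, duplicates and regions of high signal were removed with tools that include Picard 2.26.0 and SAMtools 1.14, and coverage from deepTools 3.5.1, scaled without chromosomes X and M, was averaged in windows on a 5 kb grid. Domains were seeded at bins above a high percentile of the log2 ratio to input and extended to a low percentile. Whether replicates were pooled, and whether percentiles were set for each list, is not given in the sources used here.

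Gene starts (5′ ends) came from GENCODE M21 on GRCm38, and 0 domains reached past a chromosome end of GRCm38.p6. Each start was placed in the 5 lists with Python 3.11.15, numpy 2.4.6 and pandas 2.3.3. Wilson 95% intervals came from scipy 1.17.1. All comparisons are counts and shares without a test, because each condition has 1 list. The functions that find members, place starts and sum covered bases were tested on simulated data. Genes named are members in a domain in some but not all sorted sets in the 6 clusters that hold the most of them, and the first and last member of each cluster. Also named are 9 Zfp genes with textbook roles and genes from the list of 18 partners and methylation genes. Members of the smaller clusters and the stretches of members outside domains were named after their values were seen. A promoter was shown for Zfp708 and for the first member of its cluster with an entry in both cell states and a RefSeq promoter. Zinc finger and KRAB patterns in proteins were not analysed here. The alternatives were a minimum domain width, joined gaps, other cluster windows, plain symbols, chromosome X, wider overlap rules and leaving out each chromosome.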

Additional observations from a re-analysis of the deposited data

Results flagged for a closer look

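The start of Zfp708 was flagged because it moved in opposite directions in the 2 cell states. It entered a domain of 80 kb after depletion in mESCs and left a domain of 75 kb in 2CLCs, where it then lay 4.88 kb from the nearest domain. It was the 1 member with opposite moves, and the difference between cell states was not tested. Among all autosomal protein-coding genes, 64 showed the same combination (0.308%) and 87 the reverse one (0.418%).

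The unnamed set was flagged because it is outside the comparisons. It had 26 of 162 member starts in a domain (16.0%, Wilson 95% interval 11.2 to 22.5), against 29.8% of all autosomal starts.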

How the results depend on the processing

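The share of member starts was higher in dTAG than in DMSO under all 16 alternatives in both cell states, by 30.2 to 38.1 percentage points in mESCs and 32.4 to 41.0 in 2CLCs (32.7 and 37.0 as reported). The share of cluster bases was higher under all 14 that apply to it, by 20.5 to 40.3 and 28.2 to 39.5 points. Joining gaps of up to 10 kb, plain symbols (145 members), including chromosome X (which added 0 members), the overlap rules (at least 50% of 5 kb on either side of the start, or of the gene body) and leaving out chromosome 6, 8, 9 or 11 left every value within its Wilson interval, taken over genes for starts and over 5 kb bins for bases. These intervals treat genes and bins as independent although many share a domain, so they are a rough yardstick only.

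With a window of 100 kb (105 members), starts inside were 5.71% in mESC DMSO and 44.8% in 2CLC dTAG, starts in mESC DMSO only were 1.9%, and covered bases were 7.73%, 48.0%, 20.0% and 48.4% in mESC DMSO, mESC dTAG, 2CLC DMSO and 2CLC dTAG. In the same order, covered bases were 45.0%, 65.6%, 31.0% and 67.5% with a window of 500 kb (193 members), 28.3%, 55.8%, 22.2% and 59.2% with domains of at least 50 kb only, 23.1%, 54.7%, 30.6% and 58.8% without chromosome 4, 40.7%, 67.6%, 33.0% and 70.9% without chromosome 7, and 27.0%, 55.4%, 19.4% and 57.2% without chromosome 17. Without chromosome 4, starts in mESC DMSO only were 5.23%, and without chromosome 13, starts that left domains in 2CLCs were 0%. The smaller windows and left-out chromosomes change which clusters enter, and the cause was not tested further. Leaving out replicates was not run, since each list stands for a whole condition. No paired analysis was possible because each condition has 1 list and no sample has values of its own. Depth is unknown and sets no limit that could be computed.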
